A study of Arabidopsis thaliana with 4 samples.

Results

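Beta-glucosidases of Arabidopsis thaliana were followed in seedlings of 2 sfr6 mutant lines and of wild type after cold treatment. The genes were taken by symbol, as every gene named BGLU with a number, together with PYK10, that the array annotation pairs with a probe set of its own, and without BGLU19. Of 40 such genes in the gene table, 20 had a probe set of their own, 1 probe set each. Of these 20, 9 had a mean log2 expression value at or above 6.46, the 40th percentile of all non-control probe sets, and entered the tests among 7205 genes. The other 11 were dimmer. BGLU46, with a mean of 7.42, was the nearest gene inside that limit and BGLU45, at 6.07, the nearest outside it.

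All seedlings were 7 days old, were grown at 20 °C in a cycle of 16 h light and 8 h dark, and spent 6 h at 5 °C before harvest. In a first experiment sfr6-3 (WiscDsLox504A08) was treated beside wild-type Col-0 (replicate 1), and in a second sfr6-2 (SALK_048091) was treated beside another Col-0 sample (replicate 2). Both mutants are insertion lines of SFR6, which encodes a subunit of the Mediator complex of RNA polymerase II transcription. Each line was measured on 1 array per experiment, 4 arrays in all, and p-values rest on the spread between these few arrays, pooled over genes. No array held seedlings kept warm, so what the cold itself did to these genes cannot be told apart from their level in warmth.

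Beta-glucosidases of glycoside hydrolase family 1 cut glucose from small glucosides, and plants keep many hormones, defence compounds and wall precursors as such glucosides. BGLU45 and BGLU46 act on the glucosides of monolignols, the building units of lignin, and BGLU44 acts on mannosides. PYK10 is the main enzyme of ER bodies, spindle-shaped compartments of the endoplasmic reticulum in roots and seedlings that serve in chemical defence. Members were therefore described as wall and lignin-related (BGLU44, BGLU45, BGLU46 and BGLU47), as ER-body enzymes and their close relatives (PYK10, BGLU24 and BGLU25), or as others.

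The arrays had been scaled alike by the authors, and their medians over the tested genes lay between log2 values of 8.49 and 8.58. SFR6 had 0 single-gene probe sets, and the labels of genotype have no check on it here. Here and below a gene is called measured when a probe set names it alone and its mean lies above the filter level. A gene not measured may lack such a probe set, which says nothing of its level. Of the shoot markers, 3 of 13 were measured, and their summed log2 level was 15.84 in Col-0 against 15.60 in sfr6-3 and 16.21 in Col-0 against 16.16 in sfr6-2. Singly, LHCB4.2 differed from Col-0 by -0.98 in sfr6-3 and -0.27 in sfr6-2, RCA by -0.096 and 0.054, and LHCB4.1 by -0.087 and 0.010. None passed the test. Of the root markers, 1 of 13 was measured, the root-hair expansin gene EXPA7, at 6.33 in Col-0 against 6.37 in sfr6-3 and at 7.92 in Col-0 against 7.17 in sfr6-2. Both readings of the first experiment were under the filter level, those of the second above it, and the part of tissue make-up in the results was not tested. Of 12 seed markers 0 had a probe set of their own, so 0 were measured. In whole seedlings, fewer cells of a type and less RNA per cell cannot be told apart.

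Of the 9 tested beta-glucosidases, BGLU46 had the lowest combined effect of the mutants. Its log2 expression was 8.89 in Col-0 against 7.59 in sfr6-3 and 7.96 in Col-0 against 5.21 in sfr6-2. Both mutant arrays lay below both Col-0 arrays, as they did for 11.6% of all genes tested. The log2 difference was -1.30 in sfr6-3, 2.46-fold lower, and -2.75 in sfr6-2, 6.71-fold lower. At least 2-fold lower were 3.84% of all genes in sfr6-3 and 3.58% in sfr6-2. Taken over both experiments, with each mutant set against its own Col-0 and the alleles counted as replicates of a single mutant effect, BGLU46 fell by 2.02 on the log2 scale, 4.06-fold (SE 0.33, 95% interval -2.73 to -1.32, limma adjusted p = 0.000852). That effect stood at percentile 0.555 of all genes tested, and 3.39% of all genes were called lower. With 1 residual degree of freedom, the SE rests mostly on the spread pooled over all genes tested. The separate differences of -1.30 and -2.75 both lie outside the 95% interval, so it does not show how closely the alleles matched. The value in sfr6-2 lay under the filter level, where readings are dim. With it raised to that level the difference in sfr6-2 was -1.50 and the combined effect -1.40. Leaving out an array also removes the block for experiment, and limma then called 0 of all 7205 genes, so that no call could hold. The value of BGLU46 was then -1.56 with Col-0 replicate 1 dropped, -3.21 for sfr6-3, -2.49 for Col-0 replicate 2 and -0.83 for sfr6-2. The call also ended when no filter on low values was used (adjusted p = 0.0582). With the Col-0 arrays exchanged between the experiments, which was tried after seeing the data, the difference was -0.37 in sfr6-3 and -3.68 in sfr6-2.

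**Figure D1:**
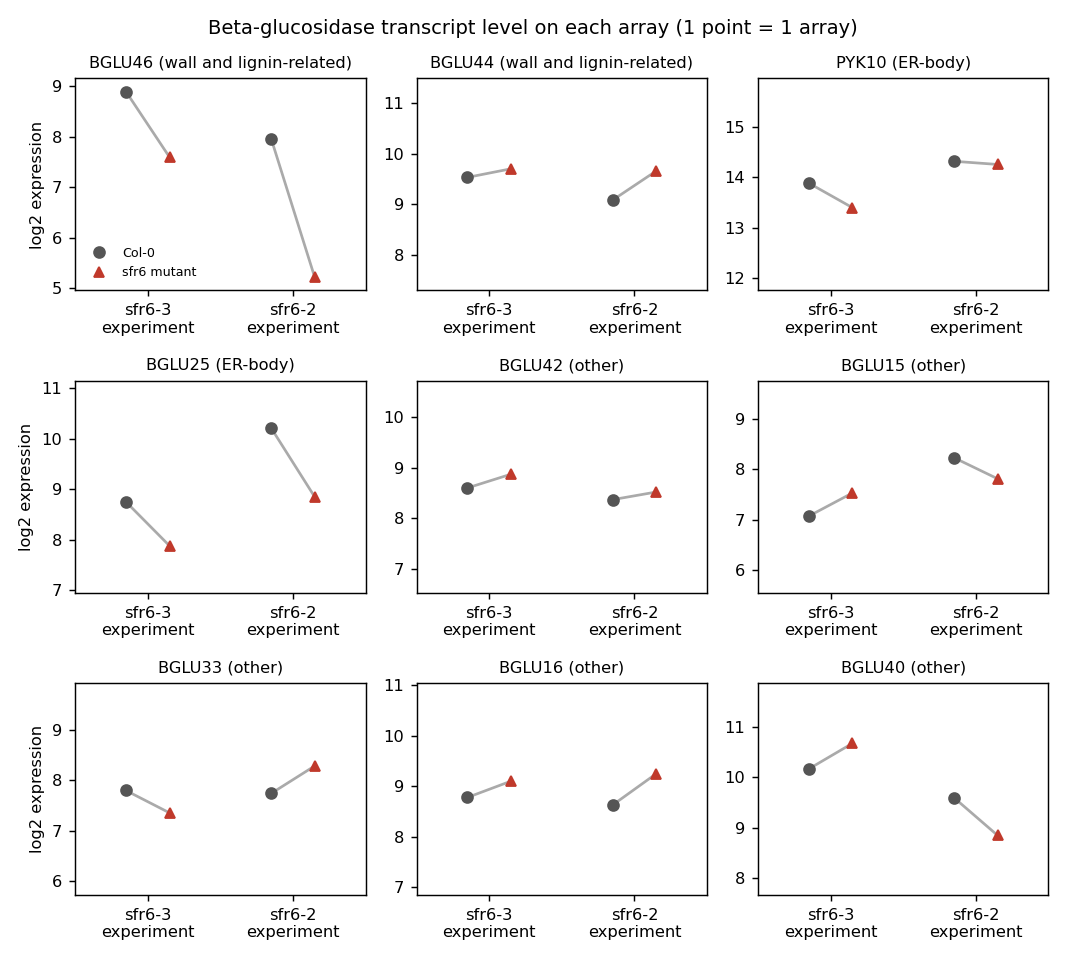
Log2 expression of the 9 beta-glucosidases past the filter, 1 panel a gene and 1 point an array, with grey circles for Col-0 and red triangles for the mutant of the same experiment, joined by a line; every panel spans the same range of log2 units. The lines of BGLU46, BGLU25 and PYK10 fall in both experiments, that of PYK10 hardly in the second (-0.063). Those of BGLU15, BGLU33 and BGLU40 run in opposite directions.

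The other wall and lignin-related genes did not share a fall past the test. BGLU44, at 9.53 in Col-0 against 9.70 in sfr6-3 and at 9.08 in Col-0 against 9.66 in sfr6-2, had both mutant arrays above both Col-0 arrays. Its combined effect was 0.37 (SE 0.22, 95% interval -0.098 to 0.85, limma adjusted p = 0.428), which did not pass. BGLU45 lies next to BGLU46 in the gene order of the TAIR10.1 assembly and was under the filter. It read 6.50 in Col-0 against 5.89 in sfr6-3 and 6.60 in Col-0 against 5.28 in sfr6-2, so both mutant arrays were below both Col-0 arrays here too. The differences were -0.61 and -1.32, the latter larger, as for BGLU46, and they were not tested. BGLU47, a relative of these enzymes, was dimmer still, at 4.72 in Col-0 against 5.62 in sfr6-3 and at 6.01 in Col-0 against 5.88 in sfr6-2, with no shared direction.

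Of the ER-body genes, BGLU25 fell and PYK10 did not pass the test. BGLU25, close in sequence to the ER-body enzymes, read 8.75 in Col-0 against 7.88 in sfr6-3 and 10.21 in Col-0 against 8.85 in sfr6-2. Each mutant was below its own Col-0, but sfr6-2 read above the first Col-0 array, so the groups overlap. The difference was -0.87 in sfr6-3 and -1.36 in sfr6-2, 1.83-fold and 2.58-fold lower. The combined effect fell by 1.12 (SE 0.23, 95% interval -1.61 to -0.63, limma adjusted p = 0.00744). The Col-0 arrays themselves stood 1.46 apart, 2.75-fold, which is more than either mutant differed from its control. The call therefore rests on pairing each mutant with its own Col-0. EXPA7, with its first reading under the filter level, was also higher on the second Col-0 array, and any link to BGLU25 was not tested. Without the block for experiment, where limma called 0 of all genes, neither BGLU25 nor BGLU46 was called (limma adjusted p = 0.865 for each), and BGLU25 was not called without the filter (adjusted p = 0.0587). With the same exchange of Col-0 arrays the difference of BGLU25 was -2.33 in sfr6-3 and 0.096 in sfr6-2. With an array left out, where again 0 of all genes were called, its value was -1.85 with Col-0 replicate 1 dropped, -0.63 for sfr6-3, -0.39 for Col-0 replicate 2 and -1.60 for sfr6-2.

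PYK10 was bright on all arrays, at 13.88 in Col-0 against 13.40 in sfr6-3 and at 14.32 in Col-0 against 14.25 in sfr6-2. Both arrays of the second experiment read above both of the first. The differences were -0.49 in sfr6-3 and -0.063 in sfr6-2, and the combined effect was -0.27 (SE 0.19, 95% interval -0.67 to 0.12, limma adjusted p = 0.492). That interval leaves out a 2-fold fall and does not leave out 0. The Col-0 arrays differed by 0.43. BGLU24, the other ER-body relative with a probe set of its own, was under the filter on all 4 arrays, at 0.85 in Col-0 against 4.96 in sfr6-3 and at 3.00 in Col-0 against 5.79 in sfr6-2. Differences of such dim values are inexact, and none was tested.

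**Figure D2:**
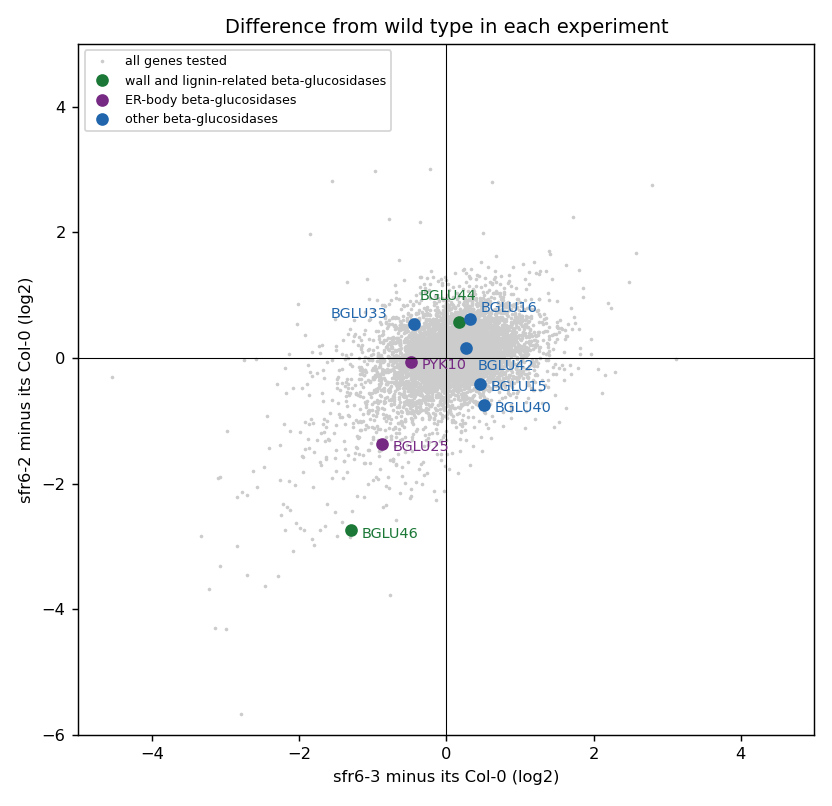
Log2 difference of sfr6-3 (horizontal) and of sfr6-2 (vertical) from the Col-0 array of the same experiment, for all 7205 genes tested (grey) and the 9 beta-glucosidases (coloured by group). BGLU46 and BGLU25 lie at the lower left, PYK10 near 0 on the vertical axis, and the others within 1 log2 unit of 0 in both directions.

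None of the 5 other beta-glucosidases past the filter passed the test. BGLU16 came nearest, at 8.78 in Col-0 against 9.10 in sfr6-3 and at 8.63 in Col-0 against 9.25 in sfr6-2. Both mutant arrays were above both Col-0 arrays, and the combined effect was 0.47 (SE 0.23, 95% interval -0.011 to 0.95, limma adjusted p = 0.311). BGLU42, which frees coumarins from their glucosides in roots, stood at 8.60 in Col-0 against 8.87 in sfr6-3 and at 8.37 in Col-0 against 8.52 in sfr6-2. Its combined effect was 0.21 (95% interval -0.28 to 0.70), less than its SE of 0.23. The remaining 3 went opposite ways in the alleles.

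BGLU15, which breaks down flavonol glycosides, read 7.07 in Col-0 against 7.53 in sfr6-3 and 8.23 in Col-0 against 7.81 in sfr6-2. Its Col-0 arrays were 1.16 apart, and both mutant values lay between them. BGLU33, which frees abscisic acid from its glucose ester in the vacuole, read 7.80 in Col-0 against 7.35 in sfr6-3 and 7.74 in Col-0 against 8.28 in sfr6-2. The Col-0 arrays nearly coincided, and the mutants lay on either side of them. BGLU40 read 10.16 in Col-0 against 10.67 in sfr6-3 and 9.59 in Col-0 against 8.85 in sfr6-2, with both arrays of the second experiment below both of the first. Their combined effects of 0.021, 0.051 and -0.12 average opposite values, and the difference between the alleles was not tested.

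Over the 9 genes, limma called 2 lower, BGLU46 and BGLU25, which is 22.2% of them beside 3.39% of all genes. It called 0 higher beside 1.26% of all genes. At an unadjusted limma p under 0.05 the same 2 of 9 genes passed, 22.2%, beside 1211 of all 7205 genes. The filter used the mean of all 4 arrays, and BGLU46 was helped past it by its Col-0 readings of 8.89 and 7.96. Its mutant readings of 7.59 and 5.21 lay on either side of the level of 6.46. Without a filter 0 of 20 members were called lower, beside 101 of 13356 genes, so the share of 22.2% depends on the filter. At least 2-fold lower of the 9 were 1 in sfr6-3 (11.1%) and 2 in sfr6-2 (22.2%), beside 3.84% and 3.58% of all genes. At least 2-fold higher were 0 in either, where 3.75% and 1.67% of all genes were. Differences had the same direction in both experiments for 6 of 9, 66.7%, near the 62.5% of all genes. Both mutant arrays were above both Col-0 arrays for 2 of 9, 22.2%, near the 24.8% of all genes. The median of the combined effect was 0.021 for the 9 genes and 0.099 for all genes tested, so the 2 called genes do not stand for the group. By role, the wall and lignin-related genes held 1 called lower and 1 not called, the ER-body genes 1 and 1, and the others 0 and 5. The combined effects were -2.02 and 0.37 for the wall and lignin-related genes and -1.12 and -0.27 for the ER-body genes, so each group held a gene that fell and another that did not pass. The others ran from -0.12 to 0.47, and the split by role was not tested.

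The wild-type arrays gave a yardstick for these values. They come from different experiments, so their difference includes any shift between experiments, which the combined effect leaves out. The absolute difference between the Col-0 arrays had a median of 0.45 over the 9 genes and 0.32 over all genes tested. It ran from 0.058 for BGLU33 to 1.46 for BGLU25, and was at least 2-fold for BGLU25 and BGLU15, 22.2% of the 9 beside 10.3% of all genes. For 7 of the 9 genes, all but BGLU46 and BGLU16, the Col-0 arrays differed by more than the combined effect of the mutants, as did 59.6% of all genes.

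**Figure D3:**
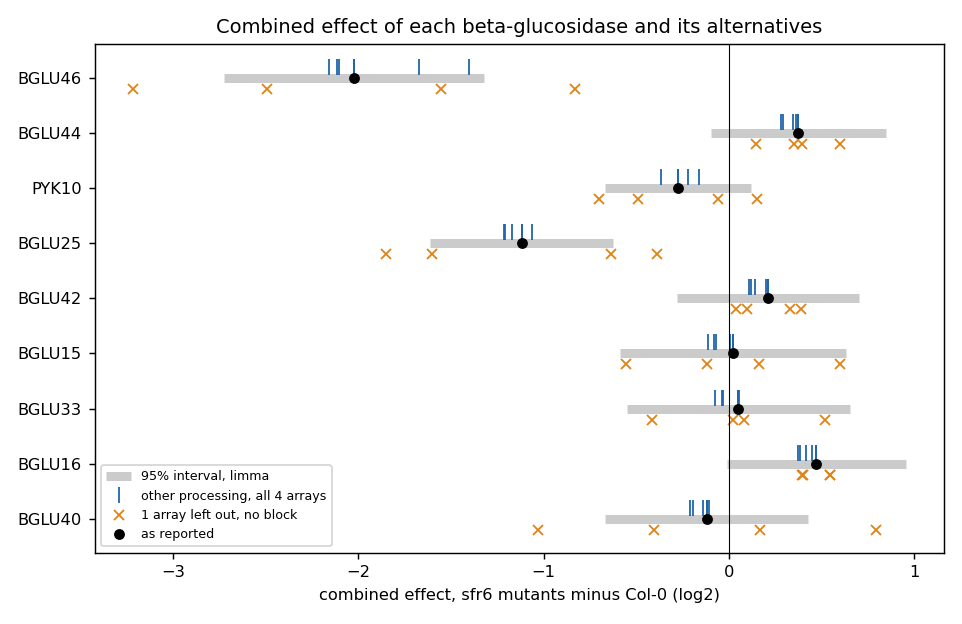
Combined log2 effect of the sfr6 mutants on each of the 9 beta-glucosidases, with the reported value (black), its 95% interval from limma (grey bar), the values under other processing of all 4 arrays (blue ticks) and with 1 array left out and no block (orange crosses). BGLU46 and BGLU25 lie below 0 at every mark, with crosses from -3.21 to -0.83 and from -1.85 to -0.39, and the crosses of BGLU40 run from -1.03 to 0.79.

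The 11 genes under the filter gave no tested value. Their mean log2 values ran from 2.04 for BGLU31 to 6.07 for BGLU45, and 3 of their 44 readings reached the filter level. Their differences ran from -3.91 to 4.11 in sfr6-3 and from -2.68 to 2.79 in sfr6-2, and had the same direction in both experiments for 5 genes and opposite directions for 6. BGLU28, which acts on glucosinolates when sulphur is short, read 8.13 in Col-0 beside 4.75 in sfr6-3, and 5.47 in Col-0 beside 4.98 in sfr6-2. Its first Col-0 array stood apart from the other 3 arrays. BGLU36 read 0.14 and 0.76 in the first experiment and 4.39 and 4.93 in the second, a gap between experiments on both genotypes. BGLU27, BGLU29, BGLU31, BGLU32, BGLU41 and BGLU43 were below the filter level on every array.

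Beta-glucosidase genes often lie side by side, and 4 of the 9 tested genes had a family member as a direct neighbour in the TAIR10.1 gene order. Of 5 such neighbours 0 passed the filter, and DIN2, beside BGLU16, had no probe set of its own. BGLU46 and BGLU45, described above, both read lower in the mutants. On its other side BGLU46 has AT1G61840, whose mean of 3.75 lies well under the filter level, so it was not compared. BGLU15 had differences of 0.46 in sfr6-3 and -0.42 in sfr6-2. Its neighbour BGLU28, under the filter as BGLU45 was, had -3.38 and -0.49, so this pair shared a direction in sfr6-2 only. The pairs BGLU44 with BGLU43 and BGLU16 with BGLU27 were not compared, because the second gene of each was below the filter level on every array. Both genes of the pair BGLU31 and BGLU32 were too dim as well.

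The genes around these enzymes in lignin synthesis were thinly measured and mostly did not pass the test. Of 18 genes of lignin precursor synthesis 1 was measured, HCT, an acyltransferase of that pathway, at 12.10 in Col-0 against 11.97 in sfr6-3 and at 12.44 in Col-0 against 11.99 in sfr6-2. Its combined effect of -0.29 did not pass (limma adjusted p = 0.485). Of 16 genes that glucosylate or oxidise monolignols, or control lignin genes, 6 were measured, of which 1 fell, 1 rose and 4 did not pass. UGT72B3, a glucosyltransferase related to the monolignol enzyme UGT72B1, fell by 1.76 (SE 0.23, limma adjusted p = 7.40e-05), from 9.74 to 7.79 in sfr6-3 and from 10.09 to 8.52 in sfr6-2. PRX72, a peroxidase of lignin formation, rose by 0.92 (SE 0.22, limma adjusted p = 0.0189), from 8.64 to 9.60 in sfr6-3 and from 9.49 to 10.36 in sfr6-2. Both mutant arrays were below both Col-0 arrays for UGT72B3 and above both for PRX72. The call of PRX72 ended after cyclic loess normalization and after median centring (effects 0.84 and 0.83), without the filter, with a filter at the 60th percentile and without the variance trend. Its effect was 0.49 with Col-0 replicate 1 dropped, 1.30 with sfr6-3, 1.34 with Col-0 replicate 2 and 0.54 with sfr6-2.

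UGT72B3 apart, the other 4 glucosyltransferases of that list did not pass the test. UGT72E1, UGT72E2 and UGT72E3 put glucose on monolignols, the reverse of what BGLU46 does. UGT72E1 had a combined effect of 0.25 (95% interval -0.22 to 0.73), UGT72E2 of -0.055 (-0.57 to 0.46), UGT72E3 of -0.035 (-0.85 to 0.78) and UGT72B1 of 0.27 (-0.18 to 0.72). UGT72E2 read 7.45 in Col-0 against 7.41 in sfr6-3 and 9.08 in Col-0 against 9.01 in sfr6-2. It differed between the experiments on both genotypes, by 1.62 between the Col-0 arrays, and hardly within them. UGT72E3 was also higher in the second experiment, at 7.99 in Col-0 and 7.60 in sfr6-2, and both its readings in the first, 5.08 and 5.39, were under the filter level.

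**Figure D4:**
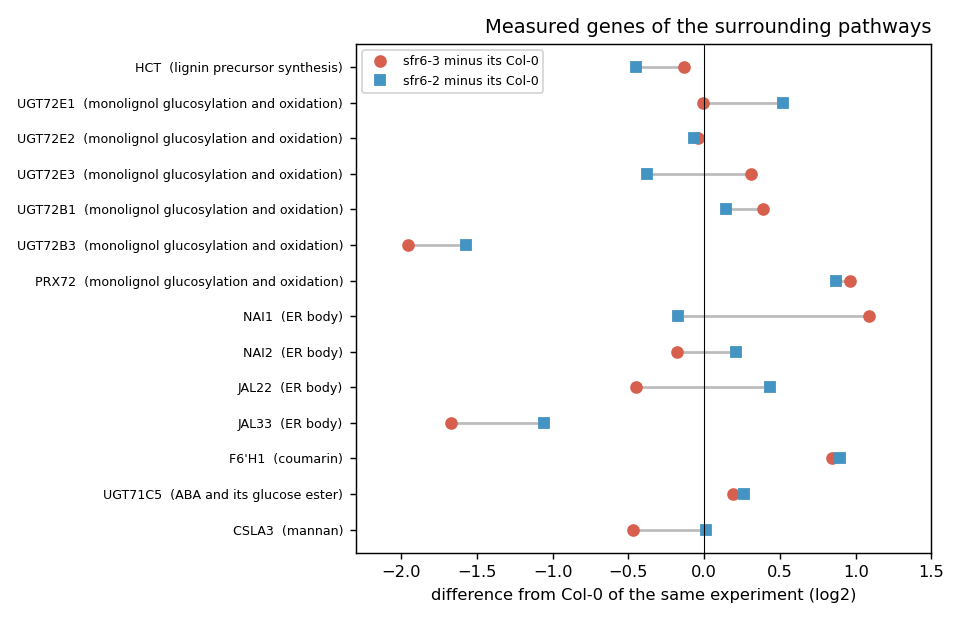
Log2 difference of sfr6-3 (circles) and sfr6-2 (squares) from the Col-0 array of the same experiment for the 14 measured genes of the lists around the beta-glucosidases. UGT72B3 and JAL33 lie below -1 in both alleles, PRX72 and F6'H1 between 0.84 and 0.97 in both, and NAI1 at 1.09 and -0.18.

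Of 14 ER-body genes 4 were measured, of which 1 fell, 0 rose and 3 did not pass. JAL33, a jacalin-related lectin listed with the lectins that bind PYK10, fell 2.57-fold (log2 SE 0.21, limma adjusted p = 0.000405), from 12.41 to 10.74 in sfr6-3 and from 12.57 to 11.52 in sfr6-2. Both mutant arrays were below both Col-0 arrays, which differed by 0.17. NAI2, a structural protein of ER bodies, had differences of -0.18 in sfr6-3 and 0.21 in sfr6-2, with a combined effect of 0.017 (95% interval -0.41 to 0.44). JAL22, another such lectin, had differences of -0.45 and 0.43. NAI1, the transcription factor that drives PYK10 and NAI2, had differences of 1.09 in sfr6-3 and -0.18 in sfr6-2, on values near the filter level, and did not pass (limma adjusted p = 0.582).

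In the remaining lists, F6'H1 (AT3G13610), the enzyme that commits phenylpropanoids to coumarins, was the 1 measured gene of 7 coumarin genes, with F6'H2 under the filter. It rose by 0.87 (SE 0.21, limma adjusted p = 0.0215), from 9.56 to 10.41 in sfr6-3 and from 9.86 to 10.76 in sfr6-2, a call that ended after cyclic loess normalization, after median centring, without the filter, with a filter at the 60th percentile and without the variance trend. The coumarin glucosidase BGLU42 had a combined effect of 0.21, as given above. Of 10 genes of abscisic acid and its glucose ester 1 was measured, UGT71C5, which forms that ester, at 0.23 (limma adjusted p = 0.679). Of 13 mannan genes 1 was measured, CSLA3, a mannan synthase, at -0.23 (limma adjusted p = 0.698). Of 16 further family 1 glycosidases and their partners, among them the myrosinases, 0 had a probe set of their own. The gene table names TGG4 and TGG5 of that list BGLU34 and BGLU35, so the list overlaps with the family.

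The genes whose pattern over the 4 arrays came closest to BGLU46, by Euclidean distance after each gene's mean was taken off, were AT3G57760 (distance 0.43 log2 units), AT1G62510 (0.47) and AT1G30820 (0.63). AT1G62510 read 14.15 in Col-0 against 12.36 in sfr6-3 and 12.82 in Col-0 against 9.85 in sfr6-2, so that it shared the lower second Col-0 array and the still lower sfr6-2 array. Closest to BGLU25 were AT5G64100 (0.17), AT3G23170 (0.19) and AT1G10090 (0.20). AT5G64100 read 10.89 in Col-0 against 10.05 in sfr6-3 and 12.33 in Col-0 against 11.17 in sfr6-2, with the same gap between experiments as BGLU25. With 4 arrays many genes can share a pattern, and the likeness is a description.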

How the data were processed

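RNA of whole seedlings was hybridised to 4 single-colour arrays, 1 for each line and experiment. The submitters' processing notes name MAS5 and affy 1.36.1 for the log2 values that the authors deposited. Every array had a linear mean of 500 after 2% of probe sets were trimmed from either end, and nothing further was done between arrays. Of 22810 probe sets 64 were controls and were not used. GEO's annotation of the array paired 13513 probe sets with 1 gene each and 503 with several, and 8730 are unnamed here. Of the single-gene probe sets 13436 had their symbols updated through the TAIR10.1 gene table. A gene with several probe sets was represented by the brightest.

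Each mutant was compared with the Col-0 treated beside it. The combined effect was fitted on all 7205 genes in R 4.3.3 by limma 3.58.1, taking experiment as a block, with a variance trend and Benjamini-Hochberg adjustment at 0.05. This left 1 residual degree of freedom, to which 17.0 prior degrees of freedom were added. The block comes from the design, and across genes the differences between experiments in Col-0 and in the mutants, which share no array, correlated at 0.58. The fit was tested on simulated data. The members, roles and gene lists were chosen with earlier results of these data known. All members past the filter are named, with the called genes of each list and up to 4 others, and the 3 nearest patterns for each called member. Precision is limited by the number of arrays. Alternatives that change a call or a direction are given in the text and the closing section.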

Additional observations from a re-analysis of the deposited data

Results flagged for a closer look

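Some genes lay above Col-0 in one allele and below it in the other. With 1 array per line the difference between the alleles was not tested, and the values below are sfr6-2 difference minus sfr6-3 difference, on the log2 scale. Among the tested beta-glucosidases it was -1.25 for BGLU40, 0.99 for BGLU33 and -0.87 for BGLU15. Among those under the filter, where values are dim, it was -1.03 for BGLU47, 2.67 for BGLU41, -3.84 for BGLU43, 6.37 for BGLU27, -1.28 for BGLU29 and -4.37 for BGLU32. Among the genes of the surrounding pathways it was 0.53 for UGT72E1, -0.69 for UGT72E3, -1.26 for NAI1, 0.39 for NAI2, 0.88 for JAL22 and 0.48 for CSLA3 (CSLA03).

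A probe set outside the comparisons, which the annotation pairs with 2 beta-glucosidase genes so that neither can be named, read 10.51 in Col-0 against 11.59 in sfr6-3 and 11.82 in Col-0 against 12.01 in sfr6-2. It lay 1.08 above Col-0 in sfr6-3 and 0.19 above it in sfr6-2, and its Col-0 arrays were 1.31 apart.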

How the results depend on the processing

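The calls of BGLU46 and BGLU25 held after quantile, cyclic loess and median normalization, with the 20th percentile added before logs, with values raised to the filter level, over all probe sets, with probe sets averaged and without the variance trend. Without the filter 0 of 20 members were called lower, with 5 at an unadjusted p under 0.05, where 101 of all 13356 genes were called lower, 13 higher, and 1504 had such a p. With a filter at the 60th percentile 1 of 6 was called, BGLU25, since BGLU46 was then not tested. With no replicate block the count was 0, with 1 at an unadjusted p under 0.05, as limma then called 0 genes in all, with 384 at that p. It was also 0 without any single array, a fit without the block in which a lone sample is assumed to vary like the others, with 0 or 1 member at that p; over all genes it made 0 calls, with 278 to 552 at that p. Median centring took the median effect of all genes from 0.099 to 0.0084, with 156 genes called lower and 14 higher beside 244 and 91. At least 2-fold lower in sfr6-3 were 1 member as reported, 2 at a 1.5-fold threshold and after cyclic loess, 0 at a 3-fold threshold and under the stricter filter, and 4 without a filter. In sfr6-2 the lower count was 1 at a 3-fold threshold and under the stricter filter, and 5 without a filter. At least 2-fold higher without a filter were 4 in sfr6-3 and 3 in sfr6-2, at a 1.5-fold threshold 1 in sfr6-2, and against the other Col-0 array 1 in sfr6-3. Against that array BGLU25 turned to 0.096 in sfr6-2. No share of all genes is given beside these fold counts at other thresholds and filters, and they are not read as a result about the members. Of the 11 members added without a filter, 3 of 44 readings reached the filter level. Effects near 0 changed sign. Median centring lowered all effects by the same amount, and the cause of the other changes of sign was not tested. After cyclic loess, median centring and quantile normalization BGLU15 stood at -0.11, -0.070 and -0.078 and BGLU33 at -0.078, -0.039 and -0.032, and after the first pair NAI2 stood at -0.00020 and -0.074. Leaving out each array in turn, BGLU15 ranged from -0.56 to 0.60, BGLU33 from -0.41 to 0.52, BGLU40 from -1.03 to 0.79, PYK10 from -0.70 to 0.15, CSLA3 from -0.58 to 0.13, JAL22 from -0.28 to 0.26, NAI1 from -0.087 to 1.00, NAI2 from -0.28 to 0.32, UGT72E2 from -0.87 to 0.76 and UGT72E3 from -1.49 to 1.42. BGLU44 ranged from 0.15 to 0.60 and BGLU42 from 0.035 to 0.39. The calls of PRX72 (AT5G66390) and F6'H1 (AT3G13610) ended under 10 of 15 alternatives each, and those of UGT72B3 and JAL33 under 5 of 15, the fits without the block; leaving out arrays they ranged from 0.49 to 1.34, 0.69 to 1.05, -2.13 to -1.40 and -1.75 to -0.97. The dim values of 11 members and of BGLU46 in sfr6-2 limit what can be read from them.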
